A study of Mus musculus with 40 samples.

Results

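Forebrain maturation was followed here as the change in messenger RNA between the embryonic days E14.5 and E18.5 of the mouse. The genes described are the 12279 whose mean normalized count was at least 50 at both stages, out of 17974 genes listed at either stage and 15415 listed at both. These 12279 genes held 99.5% of the summed mean counts at E14.5 and 99.3% at E18.5. Each stage had 10 libraries of polyadenylated RNA from male forebrain, 5 wild-type (WT) and 5 Chd8 KI, the labels' name for the mice that the study's title describes as carrying a duplication of the chromatin remodeler gene Chd8. The deposited values are the authors' means over all 10 libraries of a stage, so 5 of every 10 libraries behind each value carried the added Chd8 and no stage was measured in WT mice alone. The labels give no strain, no construct of the KI allele and no litter, and do not say how many litters or separate dissections the libraries came from. The KI against WT difference is not the subject here.

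The change of a gene is the log2 ratio of its E18.5 mean to its E14.5 mean, minus the median of that ratio over the 12279 genes, which was 0.07. The stages were normalized in separate tables. Stage therefore cannot be told apart from any difference in dissection, library preparation or sequencing run between the stages, and no test between stages was possible. Each change is given with an approximate standard error (SE) derived from the authors' SE of the KI against WT difference at each stage, which covers the spread between libraries of a stage and nothing that differs between stages. The median of this SE over all genes was 0.048 and its 95th percentile 0.118. For most genes a 2-fold difference was therefore many times this SE, which is an error of stage means and not the spread between single libraries. The tables hold no value per library, so groups cannot be shown library by library. For the genes that matter most, the WT and the KI level were derived from the authors' mean and fold change.

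Between these stages the rodent telencephalon moves from the production of neurons to their differentiation and to the start of gliogenesis. Radial glia, the neural stem cells that line the ventricle, divide to give intermediate progenitors and neurons. The neurons of the cortex are made in order, those of the deep layers first and those of the upper layers later. In the same period, interneurons arrive from the ganglionic eminences, axons extend to their targets, the first synapses form, and radial glia turn to making astrocytes and oligodendrocyte precursors. All values below are from whole forebrain, in which fewer cells of a type and less RNA per cell cannot be told apart.

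The tissue label was checked against forebrain transcription factors. Six3, an anterior neural plate factor, had means of 698 at E14.5 and 556 at E18.5. Emx1, of the dorsal telencephalon, went from 1281 to 520, Lhx2, a cortical selector gene, from 6087 to 2768, and Dlx2, of the ventral telencephalon, from 2908 to 1289. The list of 14 genes of midbrain, hindbrain and the Hox clusters had 0 genes at the minimum of 50. En2, Pax2 and Pax5 were the genes of it listed at E14.5, at means of 1.26, 1.31 and 1.85, and no member was listed at E18.5.

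Most genes kept to within 2-fold of the median ratio. Of the 12279 genes, 1045 were at least 2-fold higher at E18.5 (8.51%) and 615 at least 2-fold lower (5.01%), which left 86.5% between the limits. Thresholds of 4-fold and 8-fold left 140 and 13 genes on the higher side and 129 and 1 on the lower side. The SD of the change over genes was 0.70 on the log2 scale, and the middle 50% of genes lay between −0.29 and 0.37. Close to the lower limit, Ccdc14 and Snx33 fell just inside it and Llgl1 and Ptpn21 just outside. At the upper limit, Ank and Rhou stood just inside and Itga3 and Agtpbp1 just outside. Centred on the median of 32 cytosolic ribosomal protein genes instead, every change moves up by 0.28 and the counts become 1644 higher and 418 lower. Any change printed below between −0.28 and 0.04 therefore has a sign that depends on the centre. Gene lists were written from general knowledge, but they and the gene pairs below were chosen with earlier results of these data known. Counts over them are therefore descriptive and no independent support. Counts over a list cover its members, the genes at or above the minimum at both stages (582 of 698 distinct genes over 40 lists). Low genes left out of a count are named with their means where a group rests on them.

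**Figure D1:**
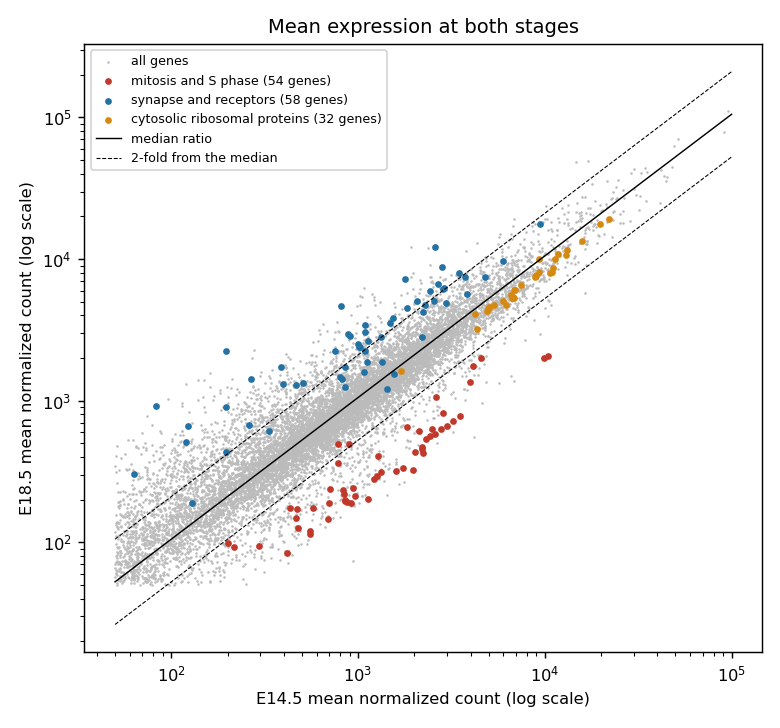
Each point is one of 12279 genes, with its mean normalized count at E14.5 on the x axis and at E18.5 on the y axis, both on log scales. The solid line is the median ratio and the dashed lines are 2-fold from it. The 54 mitosis and S phase genes (red) lie below the solid line, 52 of them beyond the lower dashed line. The 58 synapse and receptor genes (blue) lie above it except for Slc17a6 and Slc12a2, and the 32 ribosomal protein genes (orange) lie close to it.

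The gene with the largest increase was Nrgn, which encodes neurogranin, a postsynaptic protein that binds calmodulin. Its mean was 195 at E14.5 and 2231 at E18.5, a change of 3.44 (SE 0.075) or 10.8-fold relative to the median gene. The derived WT levels were 209 and 2259 and the derived KI levels 181 and 2202, so the stages were far apart in both genotypes. Next came Grm3, a metabotropic glutamate receptor (83.1 to 913, change 3.38), Necab1, a neuronal calcium-binding protein (120 to 1316, 3.38), and Met, the hepatocyte growth factor receptor, which marks developing cortical projection neurons (95.5 to 1021, 3.34). Rasgrf2, a Ras exchange factor of upper-layer neurons, and Gda, the guanine deaminase cypin that acts on dendrites, had changes of 3.33 and 3.26. The neuronal genes Slc6a7, a brain proline transporter (62.4 to 526), Thy1, a surface glycoprotein of mature neurons (114 to 925), and Kcnj2, an inward rectifier potassium channel (56.8 to 421), also stood among the 20 highest. Genes of glial cells stood among the same 20: Gpr17, of committed oligodendrocyte precursors, at 3.15, Slco1c1, a thyroid hormone transporter of astrocytes and brain vessels (114 to 957), and Slc6a11, the GABA transporter GAT-3 of astrocytes, at 2.97 (278 to 2291). Col1a2, a fibrillar collagen of connective tissue, had a change of 2.93 with a far larger SE of 0.58.

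At the other end, Nhlh1, a basic helix-loop-helix factor expressed as neurons are born, had a mean of 941 at E14.5 and 73.5 at E18.5. That change of −3.75 (SE 0.088), 13.5-fold lower, was the only one of the 12279 genes beyond 8-fold on the lower side. Its derived levels were 901 and 73.2 in WT and 981 and 73.9 in KI. Neurog2, the proneural factor of dorsal progenitors, followed at −2.99 (4165 to 553). Genes of progenitor identity among the 20 lowest were Sox3, a SoxB1 factor of neural progenitors (1423 to 215, −2.80), Fgf15, a fibroblast growth factor of the progenitor zone (422 to 71.3, −2.64), Tead2, a transcription factor of the Hippo pathway (3210 to 599, −2.50), Tfap2c, of cortical progenitors (1012 to 191, −2.48), and Gli3, the Hedgehog pathway factor that patterns the dorsal telencephalon (2632 to 505, −2.46). Cell division genes made up most of the rest: Ube2c, Bub1, Cdc25c, Dlgap5, Ncapg, Sgo1, Cdc20, Ccnb1, Cep55 and Cdca3 lay between −2.68 and −2.43. Col2a1, a collagen of cartilage and of early neuroepithelium, went from 1659 to 258 (−2.76).

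Genes of cell division were lower at E18.5 across both of their lists. In the list of mitosis and spindle genes, 26 of 26 were at least 2-fold lower, against 5.01% of all genes, with a median of −2.25 and a narrow range from −2.68 to −1.91. Mki67, the proliferation antigen, had a mean of 10338 at E14.5 and 2070 at E18.5 (−2.39, SE 0.035). Its derived levels were 10218 and 2191 in WT and 10458 and 1948 in KI, so the stages were far apart in either genotype. Top2a, the topoisomerase that untangles replicated chromosomes, went from 9917 to 1992 (−2.39), and Cdk1, the kinase that drives entry into mitosis, from 1266 to 295 (−2.18). The smallest changes of the list were those of Kif20b (−1.91), Anln (−2.01) and Prc1 (−2.04), all of which act in cytokinesis. In the list of replication licensing and S phase genes, 26 of 28 were at least 2-fold lower, with a median of −1.72 and a wider range from −2.39 to −0.74. The helicase subunits Mcm2, Mcm3 and Mcm4 had changes of −2.18, −2.30 and −1.55. Cdc6, which loads the helicase, went from 416 to 83.9 (−2.39), while Prim1, a primase subunit, and Rfc3, a clamp loader subunit, were the 2 genes within the limit, at −0.94 and −0.74.

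Promoters of these genes are shown because the mitosis and S phase lists moved together and because both classes are known for short promoter elements: the CCAAT box bound by NF-Y, the cell cycle genes homology region (CHR) of genes expressed in mitosis, and the E2F site of genes expressed at the start of S phase. The sequences are from RefSeq (assembly GRCm38.p6) and give the 130 bases before the listed transcription start, 5′ to 3′ on the gene's strand. Capitals mark the CCAAT box (the letters CCAAT), the CHR (spelled TTTGAA, or in a further form with the letters TTTAAA) and the E2F site (spelled TTTGGCGC, or in 2 further forms with the letters TTTCCCGC and with the letters TTTCGCGC). They were searched on both strands, so that a match on the other strand appears as its reverse complement. These motifs and the genes shown were chosen after the changes were seen.
Ccnb1 promoter, chr13:100786487-100786616, minus strand: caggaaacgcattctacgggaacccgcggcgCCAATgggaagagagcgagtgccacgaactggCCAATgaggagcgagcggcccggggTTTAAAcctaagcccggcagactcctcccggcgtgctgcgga
Cdc20 promoter, chr4:118437344-118437473, minus strand: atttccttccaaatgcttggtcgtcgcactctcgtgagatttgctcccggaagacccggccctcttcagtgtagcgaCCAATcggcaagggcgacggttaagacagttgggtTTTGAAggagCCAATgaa
Mcm6 promoter, chr1:128359706-128359835, minus strand: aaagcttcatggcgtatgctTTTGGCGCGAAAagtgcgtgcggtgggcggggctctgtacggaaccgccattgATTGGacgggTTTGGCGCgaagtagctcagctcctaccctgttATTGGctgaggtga
Rfc3 promoter, chr5:151651209-151651338, minus strand: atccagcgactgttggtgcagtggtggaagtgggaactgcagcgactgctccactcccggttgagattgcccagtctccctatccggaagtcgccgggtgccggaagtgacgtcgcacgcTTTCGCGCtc
Nrgn promoter, chr9:37552746-37552875, minus strand: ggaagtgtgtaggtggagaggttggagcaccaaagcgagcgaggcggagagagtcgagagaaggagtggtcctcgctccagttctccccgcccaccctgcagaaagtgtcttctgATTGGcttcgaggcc
Grm3 promoter, chr5:9725353-9725482, minus strand: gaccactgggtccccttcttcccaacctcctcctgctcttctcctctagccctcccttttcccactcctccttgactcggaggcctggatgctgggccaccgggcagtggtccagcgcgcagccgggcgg

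In the window shown, Ccnb1 (cyclin B1, change −2.46) and Cdc20 (the activator of the anaphase-promoting complex, −2.46) each hold 2 CCAAT boxes and 1 CHR match and no E2F match. The promoters of Top2a and Mki67 are not printed because their listed starts lie inside the gene's span; the same window holds 3 CCAAT boxes and 1 CHR match in Top2a, and 0 CCAAT boxes and 2 CHR matches in Mki67. Mcm6, a helicase subunit (−1.38), holds 2 CCAAT boxes and 3 E2F matches, 2 of which overlap on opposite strands, and Rfc3 (−0.74) holds 1 E2F match. Among the genes higher at E18.5, Nrgn has 1 CCAAT box and Grm3 none of the letters searched. Motifs were counted in the 250 bases before the start for the 7634 genes that had exactly 1 listed promoter. A CCAAT box was present in 17 of 22 mitosis promoters, 12 of 20 S phase promoters and 6 of 26 synapse and receptor promoters. The same letters were in 51.7% of the promoters of genes at least 2-fold lower, 26.8% of those at least 2-fold higher, 37.5% of all 7634 and 33.8% of the 32851 promoters listed. A CHR match was present in 12 of 22 mitosis promoters, 5 of 20 S phase promoters and 3 of 26 synapse and receptor promoters. Its share was 23.9% among lower genes and 15.3% among higher genes, against 16.1% of the 7634 and 25.2% of all listed. An E2F match was present in 5 of 20 S phase promoters, 1 of 22 mitosis promoters and 0 of 26 synapse and receptor promoters. Its share was 8.91% among lower genes, 1.09% among higher genes, 3.43% among the 7634 and 1.53% among all listed. The letters CTTCCG, the core of the site of ETS factors, were in 25.4% of lower and 8.56% of higher promoters, against 27.5% of the 7634 and 13.6% of all listed. They were in 9 of 22 mitosis, 8 of 20 S phase and 3 of 26 synapse and receptor promoters. The median GC content of the window was 61.6% for lower and 62.8% for higher genes, and 61.8% for the mitosis, 56.8% for the S phase and 61.6% for the synapse and receptor promoters. These shares describe letters in a window, not bound sites.

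The list of G1 cyclins and cell cycle inhibitors was mostly lower at E18.5. Of its 16 genes, 14 were below 0, 8 of them at least 2-fold lower, and 0 were at least 2-fold higher (median −0.85). The D-type cyclins differed among themselves, with Ccnd2, the form of cortical intermediate progenitors, at −1.57 (16324 to 5797), Ccnd1 at −1.21 and Ccnd3 at −0.32. The antiproliferative gene Btg2, switched on in neurogenic divisions, and Gadd45g, a growth arrest gene of newborn neurons, were the lowest at −2.12 and −2.10. The 2 genes above 0 were Cdk5r1, the p35 activator of the neuronal kinase Cdk5, at 0.53 and the inhibitor gene Cdkn1a (p21) at 0.60.

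Markers of radial glia went both ways. Of 20 radial glia genes, 11 were at least 2-fold lower and 1 at least 2-fold higher, with a median of −1.19. The transcription factor genes Pax6 (1998 to 591, −1.83), Hes1, a Notch effector (465 to 130, −1.91), and Sox2, a stem cell factor (4469 to 2087, −1.17), and the intermediate filament gene Nes (9452 to 2957, −1.75) were among the lower ones. On the higher side stood genes that astrocytes also express: Tnc, a matrix glycoprotein (1932 to 7435, 1.87), Slc1a3, the glutamate transporter GLAST (0.84), and Ptn, the growth factor pleiotrophin (0.77). Genes of intermediate progenitors and newborn neurons were more uniform, with 9 of 13 members at least 2-fold lower, none higher and a median of −1.39. Eomes (Tbr2), their defining factor, went from 4624 to 960 (−2.34) and Mfng, which modifies Notch receptors, from 1290 to 282 (−2.27). Sox4, which stays on in differentiating neurons, was at −0.35. Of the 2 listed genes that were not members, Neurog1 had a mean of 199 at E14.5 and was not listed at E18.5, and Neurod4 had 145 and 30.5.

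The oncofetal RNA-binding proteins of the Igf2bp family, which are high in young progenitors, were lower at E18.5 in all 3 forms. Igf2bp1 went from 1852 to 517 (−1.92), Igf2bp2 from 1835 to 532 (−1.86) and Igf2bp3 from 1577 to 644 (−1.37). Hmga2, a chromatin protein that keeps young stem cells dividing, had the largest drop among genes above 50 at E14.5 alone that were listed at both stages, from 410 to 18.6 (−4.53, SE 0.19), whereas its relative Hmga1 stood at −0.78. Lin28b, which blocks let-7 processing, had 238 and 235 (−0.10), and Tet1, a DNA demethylase, 1596 and 1681 (0.00). Lin28a and Trim71 were at 3.06 and 6.53 at E14.5 and were not listed at E18.5. Thus 3 of the 9 members of this list were at least 2-fold lower and 0 higher.

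**Figure D2:**
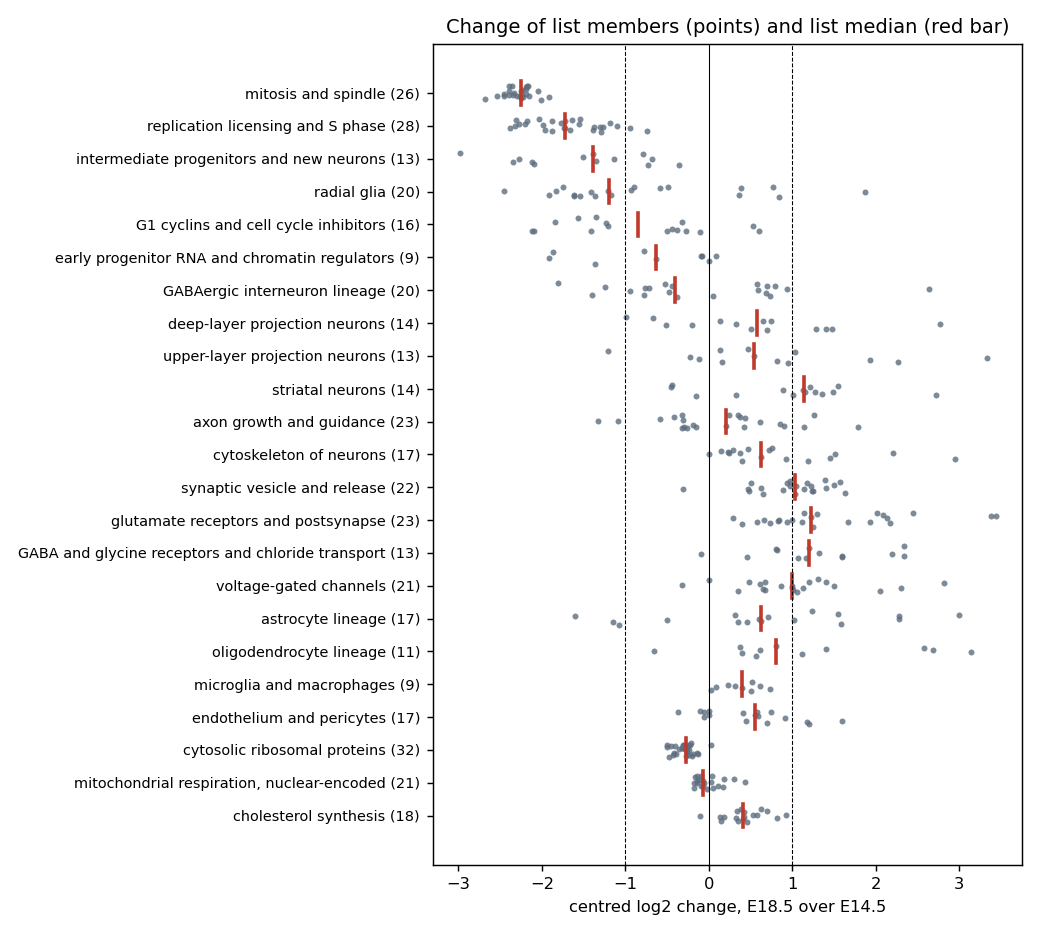
Each point is a gene, placed by its centred log2 change from E14.5 to E18.5 (x axis), on a line for each of 23 gene lists with the number of members in brackets. Red bars are list medians and dashed lines mark 2-fold. List medians run from −2.25 for mitosis to 1.22 for glutamate receptors and the postsynapse, and the ribosomal protein genes fall within a narrow band from −0.50 to 0.03.

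Identity genes of cortical projection neurons did not move as a block. Among 14 genes of the deep layers, 4 factors that specify early-born neurons had values below 0 and the other 10 genes, factors among them, had values above 0. Sox5 went from 6415 to 3384, and Fezf2, which specifies subcerebral neurons, stood at −0.67, Tbr1, of layer 6, at −0.51 (7665 to 5677) and Bcl11b (Ctip2), of layer 5, at −0.20, a value whose sign changes with the ribosomal protein centre. Other genes of the same list were at least 2-fold higher, such as Crym, a thyroid hormone-binding protein, at 2.77 (149 to 1071), Ldb2, a LIM-domain-binding cofactor, at 1.48 and Hs3st4, a heparan sulfate sulfotransferase, at 1.41. In all, 4 of the 14 were at least 2-fold higher and 0 at least 2-fold lower (median 0.58), Sox5 lying just short of the limit. Among 13 upper-layer genes, 4 were at least 2-fold higher and 1 lower (median 0.55). Mef2c, a factor of synapse development, went from 2364 to 11987 (2.27). The homeobox genes Cux1 and Cux2 differed, at −0.23 and 0.55, and Lhx2, also a radial glia gene, was at −1.21. Cajal-Retzius cells, the early neurons of the cortical surface that secrete reelin, were also mixed: their factors Ebf3, Lhx5 and Trp73 stood at −1.28, −0.89 and −0.71, Reln itself at 0.17 and Ndnf, of layer 1 neurons, at 1.96.

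In the interneuron lineage the lowest values were those of factors of the progenitor domains. Nkx2-1, which specifies the medial ganglionic eminence, went from 1022 to 307 (−1.81), and Dlx2, a factor of ventral progenitors, was at −1.25. Both GABA-synthesizing enzymes are in the list and they diverged, Gad1 at 0.79 (1717 to 3136) and Gad2 at −0.44 (3128 to 2428), a difference far above their SE. Slc32a1, the vesicular GABA transporter, was at 0.58, Sst, the peptide somatostatin, at 0.68 and Npy, neuropeptide Y, at 2.64 (181 to 1188). Of 20 members, 3 were at least 2-fold lower and 1 higher (median −0.41). In striatal projection neurons the balance lay on the other side, with 9 of 14 members at least 2-fold higher, against 8.51% of all genes, and 0 lower (median 1.14). Penk, the enkephalin precursor of indirect pathway neurons, went from 72.3 to 501 (2.72), Adora2a, their adenosine receptor, from 179 to 550 (1.55), and Drd1, the dopamine receptor of direct pathway neurons, from 122 to 359 (1.49). Drd2 was just below the minimum at E14.5, with means of 49.8 and 193. The early striatal factors Isl1, Ebf1 and Meis2 stood at −0.46, −0.45 and −0.16.

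In the neuronal cytoskeleton, the tubulin gene Tubb3 and the microtubule protein gene Dcx, both made from the birth of a neuron on, were at 0.47 and 0.14. Among the higher members, Nefl, the light neurofilament, went from 751 to 2264 (1.52), and Thy1 from 114 to 925 (2.95). Of 17 cytoskeletal genes, 5 were at least 2-fold higher and 0 lower (median 0.63). Among 23 genes of axon growth and guidance, 3 were at least 2-fold higher (8.51% of all genes) and 2 at least 2-fold lower (5.01% of all genes), with a median of 0.21. Growth cone genes Gap43 and Stmn2 were at 1.26 and 1.15. The netrin receptors went apart, Unc5c at 1.78 (285 to 1035) and Dcc at −1.08 (6470 to 3219), and Sema5a, a semaphorin, stood at −1.33.

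Presynaptic genes were higher at E18.5 with few exceptions. Of 22 genes of the synaptic vesicle and of transmitter release, 12 were at least 2-fold higher and 0 lower, with a median of 1.04 and 21 above 0. Rims1, an organizer of the active zone, went from 398 to 1304 (1.64), Syt4, a synaptotagmin, from 2822 to 8838 (1.57), and Stx1a, a fusion protein of the plasma membrane, from 753 to 2240 (1.50). Syn1, a vesicle phosphoprotein, was at 1.24, Syp, the vesicle marker synaptophysin, at 1.03 and Syn2 at 0.97. The exception was a vesicular glutamate transporter: Slc17a6 (VGLUT2), the form that dominates early and in the diencephalon, was at −0.31 (1432 to 1213), while Slc17a7 (VGLUT1), that of the mature cortex, was at 0.50 (1074 to 1604).

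On the receiving side of glutamate synapses, 15 of 23 members were at least 2-fold higher and 0 lower (median 1.22). Grin1, the subunit every NMDA receptor needs, went from 388 to 1739 (2.09, SE 0.056), with derived WT levels of 412 and 1783 and derived KI levels of 364 and 1696. Grin2b, the subunit of the immature receptor, went from 885 to 2963 (1.67, SE 0.109). Grin2a, the subunit of the mature receptor, was still low, at 8.63 and 52.6. Grm5, a metabotropic receptor coupled to calcium release, was at 2.44 (812 to 4651) and Camk2b, a kinase of the postsynapse, at 2.17 (2570 to 12216). The scaffold genes Dlg3 (SAP102) and Dlg4 (PSD-95) were at 0.29 and 0.58. Receptors for GABA and glycine and the chloride transporters also had higher means, with 9 of 13 members at least 2-fold higher and 0 lower (median 1.20). Gabra5, a subunit of the GABA-A receptor, was at 2.34 (268 to 1428). Slc12a5 (KCC2), which exports chloride and thereby makes GABA inhibitory, went from 907 to 2881 (1.59), whereas Slc12a2 (NKCC1), which imports chloride, had 1548 and 1534 (−0.09).

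Voltage-gated channels had a median of 0.99, with 10 of 21 at least 2-fold higher and 0 lower. Scn2a, the main sodium channel of immature axons, was at 2.05 (919 to 4009). Kcna1, a potassium channel of mature axons, was at −0.32. Genes induced by neuronal activity ranged from low to high levels. Of 14, 5 were below 50 at E14.5, among them Fos (13.1 and 30.7) and Bdnf (33.8 and 79.9), while Homer1 was at 1121 and 1875. Of the 9 members, 2 were at least 2-fold higher, Npas4 at 1.60 and Nr4a3 at 1.37, while Arc was at −0.60 and Dusp1 at −0.65. The 5 genes left out by the minimum had changes from 1.16 (Fos) to 2.76 (Fosb). Egr1, Egr3 and Bdnf passed it at E18.5 alone, which fixes their direction, and Fos and Fosb were below it at both stages. These 5 genes are therefore not added to the count.

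Astrocyte genes lay on both sides of the median. Of 17 members, 7 were at least 2-fold higher and 3 lower (median 0.62). The 3 lower ones were Fgfr3, a growth factor receptor (−1.60), Nfia, a factor that starts gliogenesis (−1.15), and Sox9 (−1.07), all of which radial glia also express. Slco1c1 (114 to 957), Sparcl1, a secreted synaptogenic protein (1048 to 5382, 2.29), and Apoe, the lipid carrier of astrocytes (616 to 3161, 2.28), were the highest. Aldh1l1, a folate enzyme used as an astrocyte marker, was at 1.24. Gfap, the astrocytic intermediate filament, and Aqp4, the water channel of endfeet, were not members because they were below 50 at E14.5. Gfap went from 5.83 to 459 (6.22, SE 0.30) and Aqp4 from 26.0 to 308 (3.49, SE 0.18). S100b was at 3.74 and 17.7.

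In the oligodendrocyte lineage the largest changes were those of genes of precursors. Pdgfra, the growth factor receptor of precursors, went from 200 to 1256 (2.58), and Olig1 from 211 to 1431 (2.68, SE 0.063), with derived WT levels of 208 and 1540 and derived KI levels of 215 and 1322. Gpr17 went from 51.5 to 480 (3.15). Sox10, the lineage's defining factor, was below the minimum at E14.5, at 28.7 and 205. Olig2, which ventral neuronal progenitors also use, was at 0.39 (504 to 697). Among myelin genes, Mbp was at 0.38 (500 to 685) and Mag, below the minimum, at 6.44 and 13.2. Mog, a myelin surface protein named here after its values were seen, was the highest of them at 1.12 (248 to 566). Myrf, the master factor of myelination, had 19.8 and 27.8, and Opalin, a late myelin gene, was not listed at either stage. Of the 11 members, 5 were at least 2-fold higher and 0 lower (median 0.81). The 1 member below 0 was Ugt8a, at −0.65 (90.5 to 60.6). Of 9 microglial members none passed the limit in either direction (median 0.40), with Cx3cr1 at 0.31 and P2ry12 at 0.08. Of the 7 listed genes left out by the minimum, Mrc1, of macrophages at the brain's borders, went from 27.0 to 116 (2.03, SE 0.58). In the vessel wall, 3 of 17 members were at least 2-fold higher and 0 lower (median 0.56). Abcb1a, an efflux pump of the blood-brain barrier, was at 1.59 and Flt1 and Vtn at 1.20 and 1.18. The other 14 lay between −0.37 (Slc2a1, the glucose transporter of the barrier) and 0.91 (Cldn5, a tight junction gene).

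**Figure D3:**
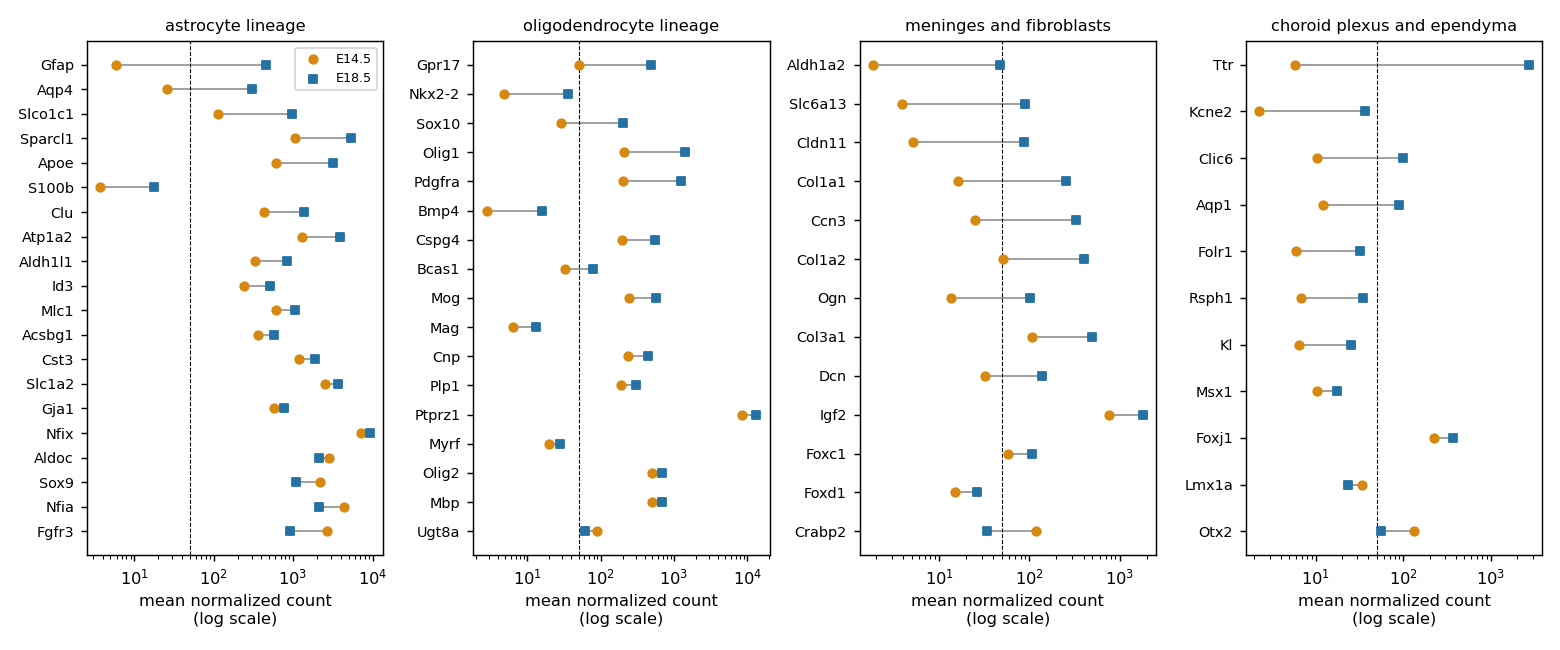
Mean normalized counts at E14.5 (orange circles) and E18.5 (blue squares) on a log x axis, for the listed genes of 4 tissues found at both stages, ordered by change. The dashed line is the minimum of 50. Gfap, Aqp4, Sox10 and most meningeal and choroid plexus genes start below the minimum at E14.5, and Ttr spans the widest gap, from 5.76 to 2718.

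Tissues that border the forebrain differed between stages with much larger SE values. The meningeal and fibroblast list summed to 1210 at E14.5 and 3936 at E18.5. Its 4 members were Col1a2 (2.93, SE 0.58), Col3a1 (2.10, SE 0.62), Igf2, a growth factor (1.17, SE 0.37), and Foxc1, a meningeal factor (0.79). Crabp2, a retinoic acid-binding protein gene of the same list that was below the minimum at E18.5, went the other way, from 119 to 33.7 (−1.89, SE 0.30). Col1a1 went from 16.2 to 252, and the authors' deposited table gives an SE of 1.44 for its KI against WT difference at E18.5. The choroid plexus list summed to 452 and 3498, of which Ttr, the thyroid hormone carrier made by the choroid plexus, took 2718 at E18.5. For the KI against WT difference of Ttr the authors' deposited table gives an SE of 1.21 at the earlier stage and 1.88 at the later one, so that its level was far from constant between libraries of a stage. The 2 choroid plexus members, Otx2 at −1.32 and Foxj1 at 0.64, give a median of −0.34 whose sign flips when the minimum is 100 or 200, since Otx2 then drops out. Erythroid genes had lower means at E18.5: the embryonic globin genes Hbb-y and Hba-x had means of 960 and 163 at E14.5 and were not listed at E18.5, and the adult gene Hba-a1 went from 1405 to 788 (−0.91, SE 0.26). Hba-a1 and Hba-a2 are near-identical copies, and the split of reads between them is uncertain. How much the dissection adds to these values, or to those of the neuronal lists above, was not tested.

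Most chromatin regulators stayed within 2-fold. Neural progenitors and neurons assemble different BAF remodeling complexes, in which Actl6a, Phf10 and Ss18 are exchanged for Actl6b, Dpf1 or Dpf3, and Ss18l1. Actl6a went from 1738 to 675 (−1.44) and Actl6b from 1905 to 2968 (0.56), while Ss18 was at −0.92 and Ss18l1 at 0.44. Phf10 and Dpf1 were at −0.21 and 0.43, and Dpf3 at −0.49. Over all 19 BAF subunits, 1 was at least 2-fold lower and 0 higher (median −0.34). Among 21 enzymes and readers of DNA and histone methylation and deacetylation, 3 were at least 2-fold lower (median −0.29): Uhrf1, which guides maintenance methylation at the replication fork, at −2.21, Ezh2, the Polycomb methyltransferase of dividing cells, at −1.38, and the deacetylase Hdac1 at −1.19. Ezh1, the Polycomb enzyme of postmitotic cells, was at 0.70 (440 to 755). The DNA methyltransferases Dnmt1, Dnmt3a and Dnmt3b were at −0.42, −0.05 and −0.63.

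The CHD family of remodelers, to which the duplicated gene belongs, had 1 member in each direction beyond 2-fold. Chd7, which acts in progenitors, went from 3669 to 1218 (−1.67), and Chd5, expressed in neurons, from 2470 to 6868 (1.40). Chd4, a core NuRD subunit, was at −0.83, Chd1 at −0.59, Chd2 at −0.57 and Chd3 at 0.07. Chd8 was at 6900 and 6202 (−0.23), a mean over both genotypes. Its derived levels were 5395 and 5114 in WT and 8405 and 7290 in KI, and the change in WT alone was −0.15. Among splicing regulators, Ptbp1, of progenitors, went from 4284 to 1761 (−1.36), and its neuronal relative Ptbp2 was lower too, at −0.44. Rbfox1, a splicing factor of mature neurons, was at 1.20, and 20 splicing genes had a median of 0.07.

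Related genes were compared in pairs written as an earlier form (embryonic or progenitor) and a later form (mature or neuronal), since the difference of their changes does not depend on the centre. The order is a loose one in some pairs: Igf2bp1 and Igf2bp2, and Ccnd1 and Ccnd2, are both progenitor genes. Both partners were members in 29 of 34 pairs. Phf10 and Scn3a each stand in 2 pairs, so the pairs are not all independent. The later form had the more positive change in 21 of them, by more than 2 SE in 20, and the earlier form in 8, by more than 2 SE in 7. The median difference was 0.53, and 8 pairs differed by 1 or more in favour of the later form. The largest difference was that of the hexokinases, Hk2 (566 to 177, −1.75) and Hk1 (2222 to 5224, 1.16), at 2.91. Ezh2 and Ezh1 differed by 2.08, Hdac1 and Hdac11 by 1.81, Slc12a2 and Slc12a5 by 1.68 and the enolases Eno1 and Eno2 by 1.63. In 10 pairs the earlier form was below 0 and the later form above it. In 11 pairs both were above 0, as with the microtubule protein genes Map1b (0.38) and Map1a (0.63). Some pairs had the reverse order: Camk2a, the adult kinase form, was at 1.14 and Camk2b at 2.17, and the adult aldolase form Aldoc was at −0.50 with Aldoa at 0.29. The sodium channel genes Scn3a and Scn8a differed by −0.02 (SE 0.054) and Igf2bp1 and Igf2bp2 by 0.06 (SE 0.078), less than their error.

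**Figure D4:**
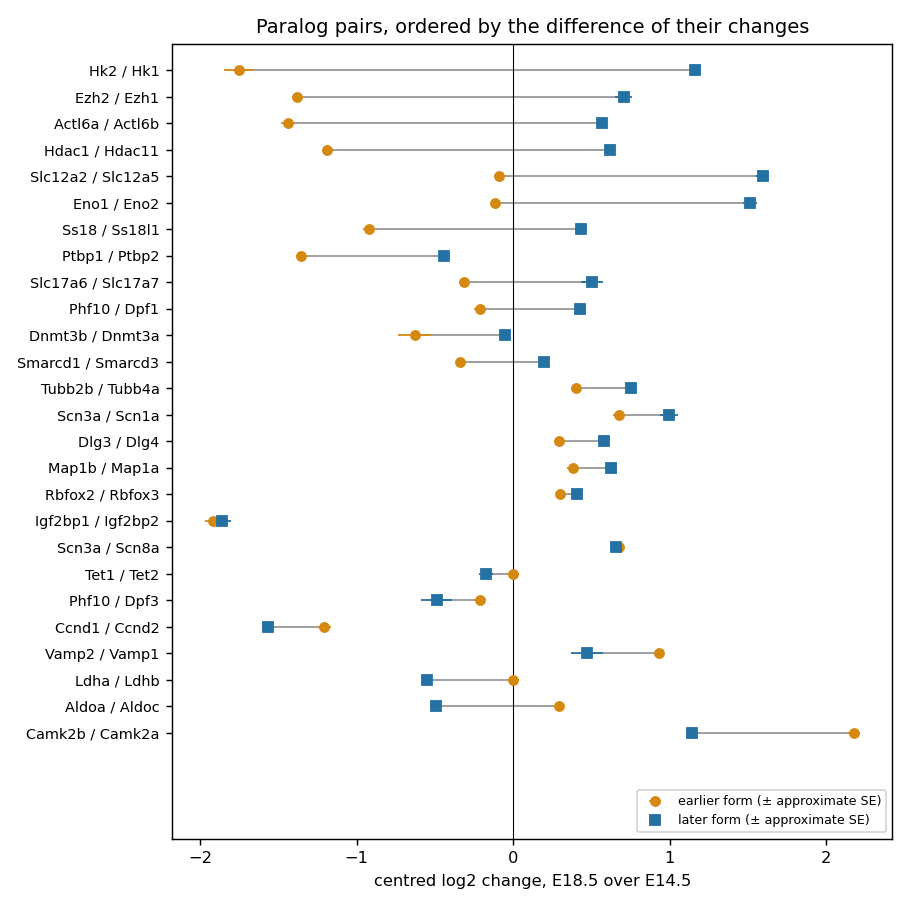
Centred log2 change from E14.5 to E18.5 (x axis) of the earlier form (orange circles) and the later form (blue squares) of 26 of the 29 gene pairs, with bars of 1 approximate SE. Pairs are ordered by the difference, from Hk2 and Hk1 (2.91) at the top to Camk2b and Camk2a (−1.03) at the bottom.

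Housekeeping pathways differed in how far their genes spread. All 32 cytosolic ribosomal protein genes lay between −0.50 (Rpl5) and 0.03 (Rplp1), with 0 beyond 2-fold and a median of −0.28, which is 0 by construction when they serve as the centre. Genes of ribosome biogenesis had a median of −0.23 and 0 of 16 beyond 2-fold, the nucleolar genes Dkc1 and Npm1 being lowest at −0.81 and −0.76, and this median turns to 0.04 with the ribosomal protein centre. The nuclear-encoded genes of mitochondrial respiration formed a similarly tight group, 21 members from −0.18 to 0.44. Their median of −0.06 also changes sign with that centre. Glycolysis had a median of −0.13, with the same flip, but its genes spread widely: Pfkp, the platelet-type phosphofructokinase that is high in brain, went from 985 to 4700 (2.18), Eno2, the neuronal enolase, was at 1.51, Hk1 at 1.16, and Slc2a3, the neuronal glucose transporter, at 1.15, while Hk2 was at −1.75 and Pkm, pyruvate kinase, at −0.76. In the cholesterol pathway 17 of 18 genes were above 0 and 0 were beyond 2-fold (median 0.41). Hmgcs1, an early enzyme of the pathway, was the highest at 0.93 (8489 to 17052), followed by Mvd, a decarboxylase of the pathway, at 0.82.

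Among imprinted genes, expressed from a single parental allele, growth-related members diverged. Of 19, 5 were at least 2-fold lower and 3 higher (median −0.38). Grb10, an adaptor that restrains growth signalling, went from 6586 to 1507 (−2.20), Plagl1, a zinc-finger factor, was at −1.55 and Mest at −1.31. On the higher side, the noncoding RNAs Meg3 (14741 to 48271, 1.64) and Rian (1.02) come from one cluster whose paternally expressed gene Dlk1 was at −1.09 (497 to 245). Igf2, at 1.17, is also a meningeal gene with an SE of 0.37, and H19 was at −0.56. The clustered protocadherins, which give neurons a surface identity, had 10 of 15 members at least 2-fold higher and 0 lower (median 1.15). Pcdhgc4 and Pcdhgc5 were highest at 1.64 and 1.42, and Pcdhga9 and Pcdhgc3 were at 0.13 and 0.17. Reads of such similar genes with shared last exons can be assigned to the wrong isoform, and the values are uncertain for that reason.

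Several changed transcripts carry microRNAs in their introns or exons, and the mature sequences are shown for hosts on both sides of the median, to show which of them share a seed. The hosts and microRNAs named here were chosen after their values were seen, and the counts are of host transcripts, since polyadenylated RNA libraries do not measure the mature microRNA. Of 1679 mature microRNAs in the RefSeq table (GRCm38.p6), those lying within a member on the same strand fell in 435 genes. A gene's strand was taken from its listed promoter, so only the 9674 members with a listed promoter could be hosts. Of the 435 hosts, 39 were at least 2-fold higher (8.97%, against 8.51% of all genes) and 23 at least 2-fold lower (5.29%, against 5.01%). These shares were close to those of all genes, and the shares over the 9674 were not counted. Capitals mark the seed, bases 2 to 8.
miR-106b-5p: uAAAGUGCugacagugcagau
miR-93-5p: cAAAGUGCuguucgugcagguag
miR-25-3p: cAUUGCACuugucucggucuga
miR-92a-3p: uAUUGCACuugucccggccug
miR-9-5p: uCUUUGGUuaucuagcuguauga
miR-128-3p: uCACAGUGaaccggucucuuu
miR-29b-3p: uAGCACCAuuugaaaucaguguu
miR-29c-3p: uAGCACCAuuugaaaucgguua

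The first 3 lie in Mcm7, the helicase subunit gene that went from 4561 to 1992 (−1.27), with miR-106b-5p at chr5:138165787-138165807 on the minus strand. miR-106b-5p and miR-93-5p share the seed AAAGUGC. miR-25-3p shares AUUGCAC with miR-92a-3p, which lies in Mir17hg, the host of the miR-17 cluster, at 419 and 225 (−0.97). miR-9-5p comes from 3 genes, whose hosts differed: Mir9-3hg was at −1.35 (2313 to 954), Gm3764 at −0.66 (4237 to 2829) and C130071C03Rik at 0.37 (264 to 358). The neuronal miR-128-3p has 2 sources, Arpp21, a phosphoprotein gene of neurons, at 2.10 (572 to 2582), and R3hdm1 at 0.26 (2993 to 3775). miR-29b-3p and miR-29c-3p share the seed AGCACCA and both lie in A330023F24Rik, at 2.48 (61.1 to 358, SE 0.19).

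Genes that passed the minimum at one stage alone are given apart, because a mean under 50 at the other stage makes their ratios less precise. This selection also fixes the direction of nearly every change, so the counts below are no result about direction. There were 181 such genes at E14.5, of which 82 were at least 2-fold lower at E18.5 and 6 more were not listed there and have no ratio. There were 709 at E18.5, of which 479 were at least 2-fold higher and 2 more were not listed at E14.5. Among those listed at both stages, the genes with the largest decreases after Hmga2 were Dct, a melanin enzyme also made in the early telencephalon (235 to 29.1, −3.09), and the dorsal telencephalic progenitor factors Dmrt3 (263 to 34.3, −3.02) and Dmrta1 (132 to 17.3, −3.01). The histone gene H4c9 went from 215 to 43.2 (−2.39). Among the increases with a small SE was that of Ptk2b, the calcium-activated kinase Pyk2 (34.5 to 745, 4.36, SE 0.13). Dnah6, an axonemal dynein of motile cilia, went from 4.65 to 84.5 and Ly6c1, of endothelium, from 4.30 to 81.0. Slc6a13, Slc22a6, Ptgds and Col6a1, genes of the meninges or connective tissue, stood among the 10 highest as well. The first 3 had SE values of 1.03, 1.82 and 0.86, and Col6a1 one of 0.33. In all, 18 of the 709 genes had an SE above 0.5.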

How the data were processed

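RNA-seq of 20 forebrain libraries was used; data of 12 ChIP and input and 8 ATAC libraries were left aside. The submitters' processing notes name DESeq2 1.26.0, featureCounts 2.0.0, HISAT2 2.1.0 and Trimmomatic 0.39 and the build mm10. The authors deposited 1 DESeq2 table a stage. The signal used here is the authors' deposited mean normalized count per gene, scaled within that stage. The log2 values used are the authors' deposited KI against WT fold change and its SE. The tables hold 0 columns of per-sample values, so the depth per library is unknown. The E14.5 table reaches down to a mean of 0.987 and the E18.5 table to 9.70. A gene not listed at E18.5 may lie below a filter.

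Tables were joined on NCBI gene ID, and 12128 of 12279 genes had a symbol in RefSeq GRCm38.p6. Python 3.11.15, pandas 2.3.3 and numpy 2.4.6 were used. The SE of a change is the root of the summed squares of 0.5 times the deposited SE at each stage, since the mean of 10 libraries has that share of the SE of a difference of 5 against 5. The WT level is 2 times the mean, divided by 1 plus the fold change, reading KI as the numerator because Chd8 is then higher in KI. The calculation was run on simulated data in which few genes changed, as many up as down, with no batch difference between stages. That run checks the arithmetic only. It does not test the centring or the SE in these data, where more genes passed the limit upward than downward. Where nothing says that libraries came from separate animals or litters, the SE may be partly technical.

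The members, the 40 lists (698 genes, 582 of them members) and the 34 pairs were chosen with earlier results of these data known. Named genes are the 20 highest and 20 lowest changes (Gm, Rik, LOC and -ps symbols left out), of each list the first 3 and the 3 highest and 3 lowest members, list genes below the minimum, all pair partners, the genes nearest the 2-fold limits and the 10 highest and lowest one-stage genes. Some genes that this rule names are not reported here. The alternatives tried were other centres, other minimums, a pseudocount of 10, a margin of 2 SE and the derived WT or KI levels. Promoters were matched for 9674 members, of which 7634 had exactly 1.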

Additional observations from a re-analysis of the deposited data

How the results depend on the processing

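The counts of genes at least 2-fold higher and at least 2-fold lower, 1045 and 615, stayed within 1.5 times under most alternatives. No named gene, list median or pair at or beyond 2-fold changed sign. Another centre could not have done this, since it moves every change by at most 0.28 and pair differences not at all. Smaller shifts were common. With the ribosomal protein centre, 321 of 326 named genes and 38 of 39 list medians moved by more than their approximate SE. With the derived WT and KI levels, 137 and 132 named genes did. With the ribosomal protein centre, 1644 genes were higher and 418 lower, by construction, since every change moves up by 0.28. A minimum mean of 200 left 583 higher and 332 lower among fewer genes. Minimums of 20 and 100 gave 1342 and 718, and 822 and 484. The WT levels gave 1034 and 597, the KI levels 1093 and 629, the pseudocount of 10 gave 984 and 577, and a margin of 2 SE beyond the limit left 830 and 505. Of 39 list medians, those of choroid plexus, ribosome biogenesis, glycolysis and mitochondrial respiration changed sign in at least 1 setting, and that of the ribosomal proteins is 0 by construction with its own centre. The change from WT levels and that from KI levels differed by a median of 0.062. No paired analysis was possible because the tables hold no column per library, and for the same reason no library could be left out. The approximate SE rests on 10 libraries a stage and does not cover anything that differed between the stages.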

Other observations

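Neuropeptide and neurotrophin genes, described here as values only, were among the more divided groups. Of 10 members, 4 were at least 2-fold higher at E18.5 and 2 lower (median 0.90). Cck, the peptide cholecystokinin of cortical neurons, went from 192 to 721 (1.83), and Ntf3, neurotrophin 3, from 24.0 to 134. Nxph4, a secreted neurexin ligand, and Nrn1, the growth-promoting protein neuritin, stood at −1.22 and −1.10. Vip, a peptide of late-maturing interneurons, was not listed at either stage. In diencephalon and eye genes, a check of how far the dissection reached, 6 of 18 were members with a median of −0.66. Of these members, 5 were below 0 and 1 above it. Lhx9 stood at −1.43 (525 to 206) and Tcf7l2, of the thalamus, at −0.42 (260 to 205). Calb2, which is also in the interneuron and Cajal-Retzius lists, was at 0.93 (284 to 572). Listed genes that were not members went both ways, such as Tbx3 (15.5 to 53.9) and Otp (34.4 to 25.5).

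Genes at least 2-fold higher at E18.5 were longer than the rest. Their median span on the genome was 52.1 kb, against 23.4 kb for those at least 2-fold lower, 24.6 kb for those within 2-fold and 25.6 kb for all members with coordinates. Whether span can be separated from neuronal function was not tested.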
